A study of Mus musculus with 81 samples.

Results

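The 10 genes described here carry amino acids into the cell or convert them inside it. They were taken by symbol from the 51826 genes counted in mouse thymus and thymic lymphoma: the branched-chain aminotransferases Bcat1 and Bcat2, the carriers Slc7a5, Slc3a2 and Slc1a5, asparagine synthetase (Asns), and the serine and one-carbon enzymes Phgdh, Psat1, Shmt2 and Mthfd2. The list was chosen by symbol, but with the measured CPM of Bcat1 in lymphoma and in normal thymus already known from these libraries, so the values of Bcat1 against normal thymus are given as a description without a test. All 10 genes were found, and all 10 passed the filter on low counts in both fits.

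RNA sequencing covered 81 libraries of 40 mice on a mixed C57BL/6 x 129S4Sv/Jae background. Every mouse, controls included, carried the same 3 engineered alleles: Plk4 at Col1a1, rtTA at Rosa and centrin-GFP at Rosa. Plk4 drives the duplication of centrioles, and rtTA switches an inducible transgene on in the presence of doxycycline. The normal group held thymuses of 8 p53+/+ mice without treatment. The untreated lymphoma group held 10 p53-/- mice with 23 libraries. Both treated groups were given a 2-week course of doxycycline that began at 30 days of age, and they held 9 p53-/- mice with 18 libraries and 12 p53+/- mice with 31 libraries. One p53+/- mouse (819) gave a normal thymus and entered no test. The mice with lymphoma lacked 1 or both p53 alleles in the germline while the normal thymuses were p53+/+, so genotype and malignancy cannot be told apart in the comparisons with normal thymus. All 8 normal thymuses were untreated, so for both treated groups doxycycline treatment cannot be told apart from these either. No age at collection is given in the sources used here. In 13 tumours 4 or 5 biopsies were sequenced (54 libraries), and the counts of these biopsies were summed so that each mouse was 1 sample.

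Bcat1 is the cytosolic and Bcat2 the mitochondrial enzyme that moves the amino group of leucine, isoleucine and valine to alpha-ketoglutarate. Slc7a5 is the light chain and Slc3a2 the heavy chain of the LAT1 transporter, which takes up leucine and other large neutral amino acids in exchange for glutamine, and Slc1a5 (ASCT2) takes up glutamine. Asns makes asparagine from aspartate and glutamine. Phgdh and Psat1 catalyse successive steps of serine synthesis, Shmt2 splits serine into glycine and a one-carbon unit in mitochondria, and Mthfd2 oxidises that unit. Atf4 is the transcription factor of the amino acid response, and Asns, Psat1 and Mthfd2 are among its textbook targets. Activated and malignant T cells are known for high amino acid uptake and one-carbon metabolism.

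Bcat1 (chr6:144993835-145076184), Asns (chr6:7675169-7693254) and Mthfd2 (chr6:83305691-83325908) are protein-coding genes on the minus strand of chromosome 6 in GRCm38. Their promoter windows are shown because these genes are compared below with Atf4 and with each other. The windows run from 250 bases before to 50 bases after the RefSeq transcript start in build GRCm38.p6, all on the minus strand, and 8 of the 10 genes had an entry in the RefSeq table, namely all but Slc7a5 and Slc1a5. Capitals mark the motif TGATGNAA, which is bound by Atf4 with C/EBP partners.
Asns (chr6:7693160-7693459): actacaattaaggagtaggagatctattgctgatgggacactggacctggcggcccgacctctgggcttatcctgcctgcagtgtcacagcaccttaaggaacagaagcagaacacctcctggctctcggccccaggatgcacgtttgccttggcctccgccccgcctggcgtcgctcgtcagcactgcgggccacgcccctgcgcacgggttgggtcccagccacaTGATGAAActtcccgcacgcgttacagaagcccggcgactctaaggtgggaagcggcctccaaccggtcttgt
Bcat1 (chr6:145076108-145076407): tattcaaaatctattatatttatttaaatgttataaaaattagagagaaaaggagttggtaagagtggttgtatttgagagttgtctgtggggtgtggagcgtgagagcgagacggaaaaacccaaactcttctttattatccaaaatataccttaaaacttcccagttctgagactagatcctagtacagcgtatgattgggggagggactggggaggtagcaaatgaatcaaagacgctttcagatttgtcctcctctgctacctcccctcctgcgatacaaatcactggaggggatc
Mthfd2 (chr6:83317555-83317854): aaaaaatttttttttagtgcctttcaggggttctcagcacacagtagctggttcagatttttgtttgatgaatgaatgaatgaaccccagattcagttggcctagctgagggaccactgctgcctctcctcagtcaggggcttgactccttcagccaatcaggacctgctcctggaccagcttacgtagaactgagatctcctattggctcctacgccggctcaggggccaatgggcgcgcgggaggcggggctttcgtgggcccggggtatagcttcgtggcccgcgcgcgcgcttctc
The motif TGATGNAA, searched on both strands, was found in 1 of the 11 windows of the 8 genes. That window is the Asns one above, where the motif starts 23 bases before the transcript start. Of all 32851 windows of this length, 3.97% hold it. The E-box motif CACGTG, which Myc binds and which reads the same on both strands, was found in 0 of the 11 windows and in 7.15% of all windows.

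Some samples stand apart and bear on the results. Library totals ran from 1.03 M to 26.87 M counts (M, 1000000), with 4 libraries under 5 M. The labelled tissue was checked with markers of T cells, B cells, thymic epithelium, fat, myeloid cells, stroma and vessels, and dividing cells. Mouse 881, an untreated p53-/- lymphoma, had the lowest sum over 8 T-lineage genes (344 CPM, counts per 1000000 counts of the library after scaling) and the highest over 5 B-lineage genes (2898 CPM). Its Cd3e, a T-cell receptor component, was at 1.81 CPM, and these values go against a T-cell tumour. Normal mouse 387 had the lowest T-lineage sum of the normals (882 CPM against a median of 5025), a B-lineage sum of 1197 CPM and a fat sum of 9105 CPM. Sums over the 5 fat genes were 688 to 9105 CPM in normal thymus and 37.1 to 185 CPM in all 31 lymphomas. Sums over the 7 thymic epithelium genes were 133 to 2303 CPM in normal thymus and 10.8 to 370 CPM in the lymphomas. Sums over the 6 proliferation genes were 381 to 2316 CPM in normal thymus and 2147 to 3841 CPM in the lymphomas. The part of these differences in cell content in the results was not tested, and in tissue RNA a change in the share of a cell type and a change of RNA per cell cannot be told apart.

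**Figure D1:**
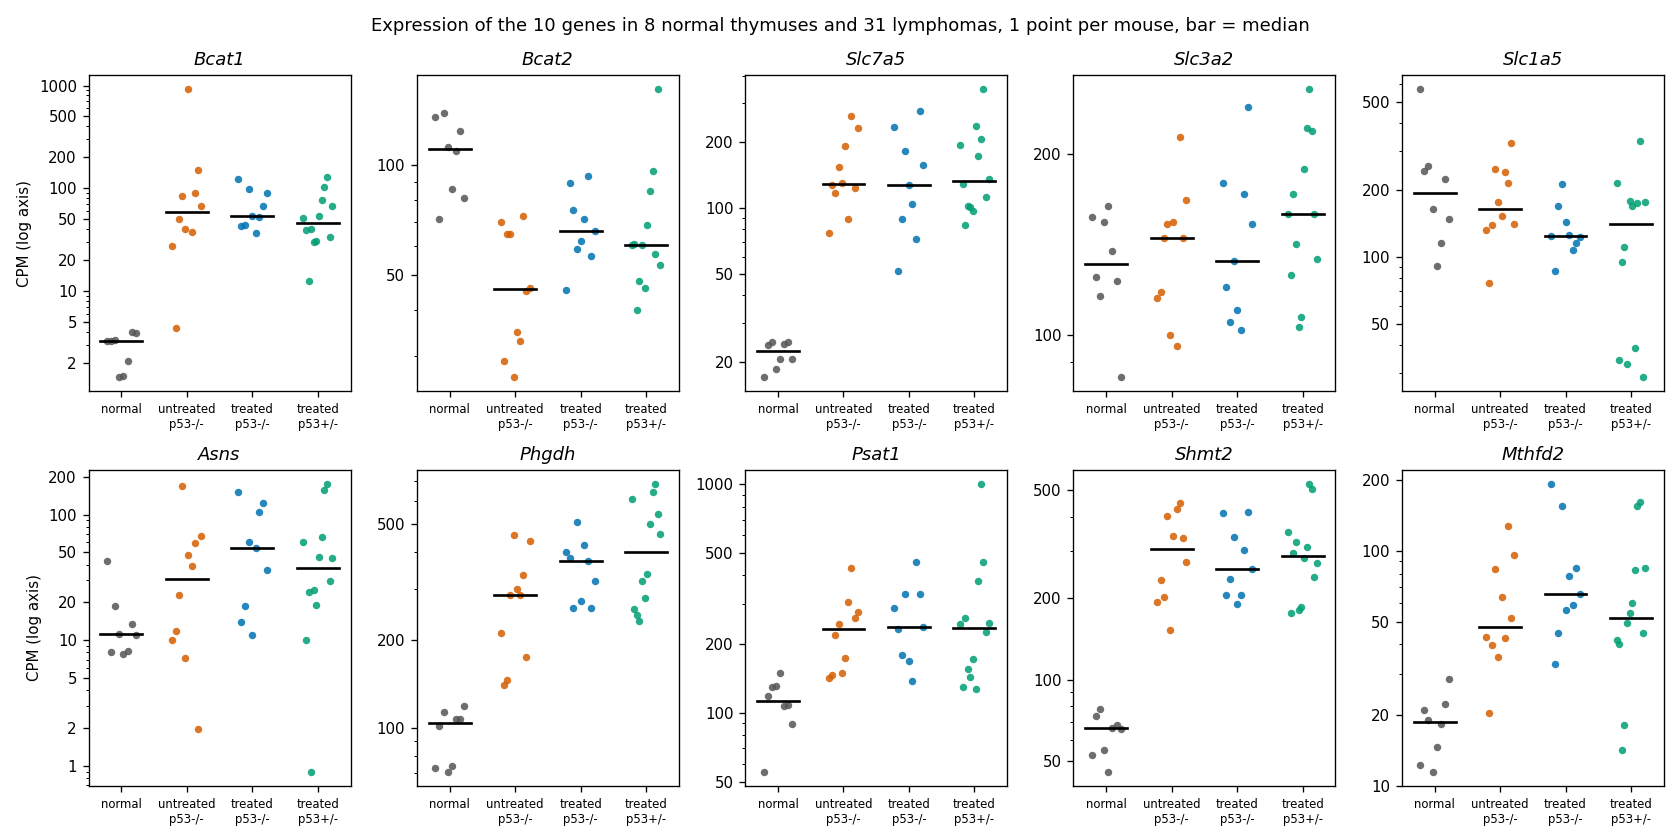
CPM (log axis) of the 10 genes, with 1 point per mouse (8 normal thymuses, 10 lymphomas of untreated p53-/- mice, 9 of treated p53-/- mice and 12 of treated p53+/- mice) and a bar at each group's median. Bcat1, Slc7a5, Phgdh and Shmt2 are above every normal thymus in all 31 lymphomas, while the groups of Slc3a2 overlap.

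Bcat1 was the least abundant of the 10 genes in normal thymus and was higher in every lymphoma. It had 1.45 CPM in the lowest normal thymus, a median of 3.24 and 3.96 in the highest. Untreated p53-/- lymphomas ran from 4.31 CPM in mouse 157 through a median of 58.7 to 921 in mouse 120. Treated p53-/- lymphomas had 37.0 to 122 CPM with a median of 53.9, and treated p53+/- lymphomas 12.5 to 128 CPM with a median of 45.9. No lymphoma overlapped the normal range, but mouse 157 lay just outside it, and the p53+/- normal thymus, at 3.43 CPM, lay inside it. The group medians were 18.1, 16.7 and 14.2 times the normal median in this order. The fitted log2 differences were 5.79 ± 0.74 (SE, n = 10 against 8), 4.49 ± 0.68 (n = 9 against 8) and 4.17 ± 0.67 (n = 12 against 8). Without mouse 120, the lymphoma with the most Bcat1, the first of these was 4.50.

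Bcat2 moved the other way. It had 71.3 to 139 CPM in normal thymus with a median of 110, against 26.3 to 72.6 (median 45.7) in untreated p53-/-, 45.5 to 93.2 (median 66.0) in the treated p53-/- group and 40.0 to 161 (median 60.4) in the treated p53+/- group. Of the 31 lymphomas, 24 lay below every normal thymus and 1, mouse 905, above. Bcat2 fell by 1.13 ± 0.23 on the log2 scale in untreated p53-/- (edgeR, adjusted p = 0.000168), by 0.68 ± 0.23 in treated p53-/- (adjusted p = 0.0114) and by 0.73 ± 0.21 in treated p53+/- lymphomas (adjusted p = 0.00479). Without normal mouse 387, which had the most fat RNA, the fall in treated p53-/- lymphomas was 0.51 and was no longer called (adjusted p = 0.0707). With multifocal tumours alone, which left 3 treated p53-/- and 6 treated p53+/- mice, the calls of both treated groups were lost (edgeR, adjusted p = 0.187 and 0.311).

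Per kilobase of exon, the share of Bcat1 in the sum of Bcat1 and Bcat2 was 0.541 to 1.97% in normal thymus (median 1.0%). The median share was 34.7% in untreated p53-/-, 26.7% with treatment of p53-/- mice and 25.3% with treatment of p53+/- mice. Bcat1 made up over 50% of the pair in 2, 1 and 0 of these mice. Mouse 120 had the highest share, 91.7% per kilobase, or 96.3% of 13349 counts (95% Wilson interval 96.0 to 96.6%). Mouse 157 had the lowest share among the lymphomas, 5.86% per kilobase, or 13% of 440 counts (interval 10.1 to 16.4%). These intervals cover counting error only.

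**Figure D2:**
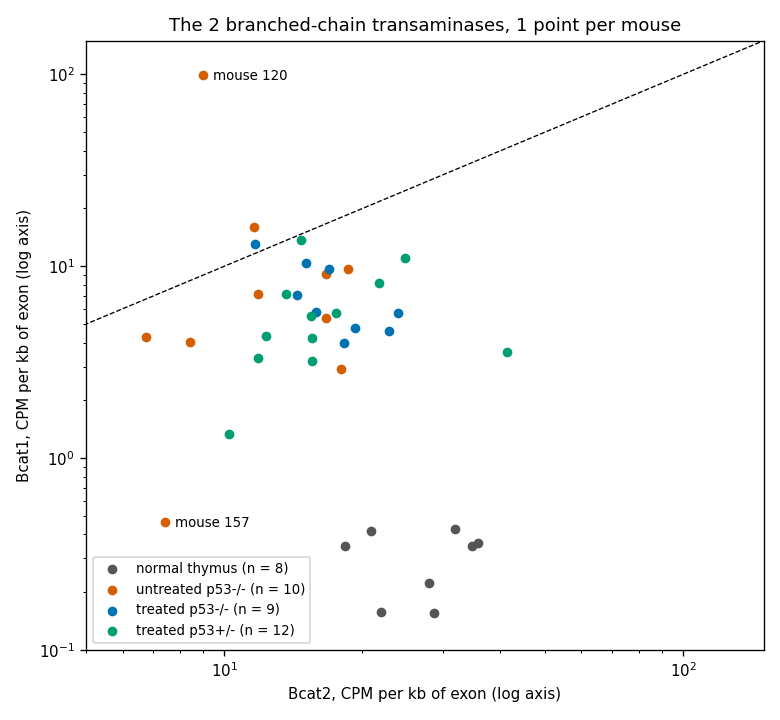
Bcat1 against Bcat2 in CPM per kilobase of exon (both axes log), 1 point per mouse, with equal levels along the dashed line. Normal thymuses lie at 0.156 to 0.424 for Bcat1, and 3 lymphomas, mouse 120 among them, lie above the line.

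Of the 9 genes other than Bcat1, 6 were called higher, 1 lower and 2 not called in untreated p53-/- lymphomas. In treated p53-/- lymphomas the counts were also 6, 1 and 2, and in treated p53+/- lymphomas 5, 2 and 2. Over all 17843 genes tested, 23.2% were called higher and 17.5% lower in untreated p53-/-, 25.4% higher and 26.7% lower in treated p53-/-, and 25.6% higher and 25.3% lower in treated p53+/- lymphomas. The median log2 difference of the 9 genes was 1.5, 1.84 and 1.56 in the 3 comparisons, beside medians over all genes of 0.08, -0.04 and 0. The 3 comparisons share their 8 normal thymuses, and earlier results of these data were known when the 9 genes were chosen. With no scaling factors 46.6% rather than 56.9% of the calls in untreated p53-/- lymphomas were higher, and the median over all genes moved from 0.08 to -0.05. Across the alternatives run, 6 to 7 of the 9 genes were called in untreated p53-/- lymphomas and 6 to 8 in each of the treated groups.

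**Figure D3:**
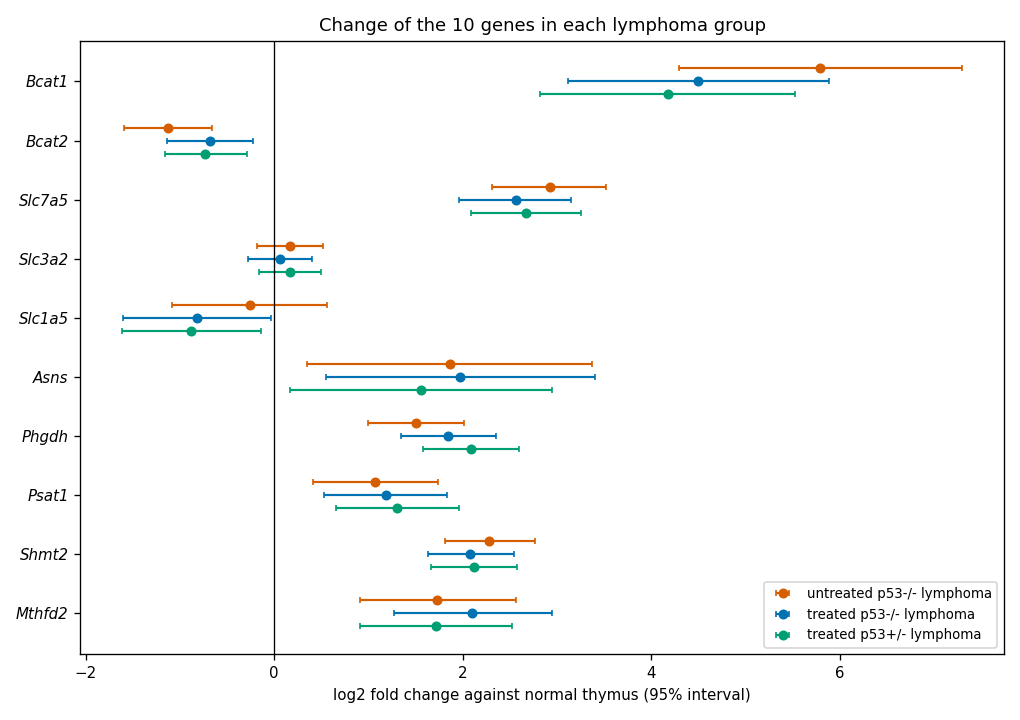
Fitted log2 difference of each gene between a lymphoma group and normal thymus (horizontal axis), with 95% intervals, for the 3 lymphoma groups. Slc7a5, Phgdh, Psat1, Shmt2 and Mthfd2 lie right of 0 and Bcat2 left of 0 in all 3 groups, and the intervals of Slc3a2 include 0.

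The 2 chains of the LAT1 transporter did not move alike. Slc7a5, the light chain, had 17 to 24.6 CPM in normal thymus (median 22.3) and 77.2 to 262 (median 129), 51.7 to 277 (median 127) and 84.0 to 347 (median 133) in the untreated p53-/- group and the treated p53-/- and p53+/- groups. Every lymphoma was above every normal thymus, and the p53+/- normal thymus, at 27.5 CPM, was just above the others. Slc7a5 rose by 2.92 ± 0.30, 2.56 ± 0.29 and 2.67 ± 0.29 on the log2 scale (edgeR, adjusted p = 2.33e-09, 9.2e-09 and 2.32e-09). Slc3a2, the heavy chain, had 85 to 164 CPM in normal thymus (median 132) and group medians of 145, 133 and 159 CPM in the lymphomas, and 21 of the 31 lymphomas lay within the normal range. Its log2 differences were 0.17 (95% interval -0.18 to 0.52), 0.06 (-0.28 to 0.40) and 0.17 (-0.16 to 0.50), and none was called (edgeR, adjusted p = 0.456, 0.792 and 0.403). The Slc3a2 difference in treated p53-/- lymphomas was -0.0047 with no scaling factors and -0.12 with single-biopsy tumours alone. With multifocal tumours alone Slc3a2 was called higher in treated p53+/- lymphomas (0.52, edgeR, adjusted p = 0.038).

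Slc1a5 split the treated p53+/- lymphomas. It had 91.3 to 569 CPM in normal thymus with a median of 194, the highest in mouse 387 and the next 257. Untreated p53-/- lymphomas had 76.6 to 326 CPM (median 165) and treated p53-/- lymphomas 86.4 to 212 (median 124). In the treated p53+/- group, mice 905, 309, 25 and 884 had 28.8, 32.8, 34.3 and 38.9 CPM, below every normal thymus and every lymphoma of the other groups, while the other 8 had 94.7 to 334. The log2 differences from normal thymus were -0.26 ± 0.41, -0.82 ± 0.39 and -0.88 ± 0.36, and only the last, in treated p53+/- lymphomas, was called (edgeR, adjusted p = 0.042). Without normal mouse 387 that call was lost (-0.35, edgeR, adjusted p = 0.447), and the value for untreated p53-/- lymphomas was 0.10.

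Asns had the largest SD of the 10 genes over the 31 lymphomas, 1.77 on the log2 scale, beside 1.25 for Bcat1 and 0.40 for Slc3a2. In normal thymus it had 7.74 to 42.7 CPM with a median of 11.2, the highest again in mouse 387 and the next 18.7. Untreated p53-/- lymphomas had 1.97 CPM in mouse 881 up to 169 in mouse 637 (median 30.7). Treated p53-/- lymphomas had 11 to 150 CPM (median 54.1) and treated p53+/- lymphomas 0.896 CPM in mouse 280, from 11 counts, up to 175 in mouse 903 (median 37.5). Thus 15 lymphomas lay above, 13 within and 3 below the normal range, and the highest and lowest differed 195-fold. Asns rose by 1.86 ± 0.74 on the log2 scale in untreated p53-/- (edgeR, adjusted p = 0.0432) and by 1.97 ± 0.70 in treated p53-/- lymphomas (adjusted p = 0.018). In treated p53+/- lymphomas the difference was 1.56 ± 0.69 and was not called (edgeR, adjusted p = 0.0555). These calls changed with single samples: without mouse 120 the untreated p53-/- value was 1.84 (edgeR, adjusted p = 0.0516), and without mouse 387 the treated p53+/- value was 2.11 (adjusted p = 0.0235). Without mouse 881, whose B-lineage markers were high, the treated p53+/- value was 1.56 with an adjusted p of 0.0423 in edgeR.

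The serine and one-carbon enzymes rose in all 3 lymphoma groups. Phgdh, the first enzyme of serine synthesis, had 70.5 to 119 CPM in normal thymus (median 104) and 140 to 459 (median 285), 257 to 506 (median 373) and 233 to 686 (median 400) in the untreated p53-/- group and the treated p53-/- and p53+/- groups. All 31 lymphomas were above every normal thymus, and Phgdh rose by 1.5 ± 0.25, 1.84 ± 0.25 and 2.09 ± 0.25 on the log2 scale (edgeR, adjusted p = 1.33e-05, 2.15e-07 and 1.88e-08). Psat1, the next enzyme, had 55.2 to 149 CPM in normal thymus and lymphoma medians of 233, 237 and 236 CPM, with mouse 894 of the treated p53+/- group at 1005. Of the lymphomas, 25 were above and 6 within the normal range, and the rises were 1.07 ± 0.33, 1.18 ± 0.32 and 1.3 ± 0.32 (edgeR, adjusted p = 0.00865, 0.00251 and 0.00105). Shmt2 had 45.8 to 78.1 CPM in normal thymus (median 66.2) against 153 to 451 (median 303), 190 to 416 (median 257) and 177 to 528 (median 287), without overlap. It rose by 2.28 ± 0.23, 2.08 ± 0.23 and 2.12 ± 0.22 (edgeR, adjusted p = 2.04e-09, 3.35e-09 and 1.62e-09). Mthfd2 had 11.5 to 28.5 CPM in normal thymus (median 18.6) and lymphoma medians of 47.4, 65.3 and 51.8 CPM, with 28 lymphomas above and 3 within the normal range. Its rises were 1.73 ± 0.41, 2.10 ± 0.41 and 1.72 ± 0.40 (edgeR, adjusted p = 0.000823, 6.69e-05 and 0.000474).

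Slc7a5, Phgdh and Shmt2 were among 614 genes (3.44% of those tested) whose 31 lymphoma values all lay above every normal value. Bcat1 was also among them, but its difference from normal thymus was known when the list was chosen. The same 4 genes met this with no scaling factors, but with little room: Phgdh was then at 140 CPM, to 3 digits, in both the lowest lymphoma and the highest normal thymus, and Bcat1 at 4.75 against 4.59 CPM.

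Levels of different genes can be compared only per kilobase of exon. In normal thymus the medians ran from Slc1a5 (46.6 CPM per kilobase) through Phgdh (41.8), Slc3a2 (37.3), Bcat2 (28.3), Psat1 (26.5) and Shmt2 (21.3) to Slc7a5 (6.00), Mthfd2 (5.35), Asns (4.08) and Bcat1 (0.347). Neighbours in this order overlapped in range, apart from the step from Shmt2 (lowest 14.7) to Slc7a5 (highest 6.63) and the step from Asns (lowest 2.83) to Bcat1 (highest 0.424). In all 3 lymphoma groups Phgdh was first (medians 115, 150 and 161 CPM per kilobase), Shmt2 second (97.5, 82.5 and 92.4) and Bcat1 last (6.30, 5.78 and 4.92).

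Other genes of amino acid metabolism were taken from a list of 67, of which 65 were tested. This list too was chosen with earlier results of these data known. In untreated p53-/- lymphomas 22 were higher and 18 lower, in treated p53-/- 22 and 22, and in treated p53+/- 24 and 22, while 19 were higher and 17 lower in all 3. The median log2 difference of the list was 0.12, -0.16 and 0.06. The counts below stand beside the shares of all tested genes called higher (23.2%, 25.4% and 25.6%) and lower (17.5%, 26.7% and 25.3%) in the 3 comparisons. Of 18 genes of branched-chain amino acid breakdown after transamination, among them the kinase Bckdk and the phosphatase Ppm1k that regulate the keto acid dehydrogenase, 12, 11 and 12 were lower and 0, 1 and 1 higher, and 11 were lower in all 3. Their median log2 differences were -0.90, -1.02 and -1.01, beside 0.08, -0.04 and 0 over all genes. Acadsb, an acyl-CoA dehydrogenase of isoleucine breakdown, went from a median of 48.6 CPM in normal thymus to 11.9, 11 and 9.62 in the lymphoma groups, and fell by 2.45, 2.55 and 2.72 (edgeR, adjusted p = 7.91e-09, 1.86e-09 and 6.61e-11). Bckdhb, a subunit of the branched-chain keto acid dehydrogenase, fell by 1.6, 1.51 and 2.30 (edgeR, adjusted p = 0.00228, 0.00174 and 3.47e-06).

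Of 12 serine, glycine and one-carbon genes, 7, 8 and 7 were higher and 1, 1 and 2 lower, where 23.2%, 25.4% and 25.6% of all genes were higher. Their median log2 differences were 0.96, 0.91 and 1.0. Shmt1, the cytosolic counterpart of Shmt2, rose by 2.28, 2.50 and 2.33, and Mthfd1l, a mitochondrial formate-producing enzyme, by 2.17, 1.76 and 1.98. Aldh1l1, which oxidises one-carbon units to carbon dioxide, fell by 3.78, 4.48 and 4.37. All of these had edgeR adjusted p-values of 8.32e-07 or lower. Among 12 other amino acid carriers, 5, 5 and 6 were higher and 1, 3 and 2 lower, with medians of 0.35, 0.04 and 0.35. The cationic amino acid carrier Slc7a1 rose by 2.71, 2.43 and 2.26, its relative Slc7a3 by 2.88, 4.11 and 3.27, and the large neutral amino acid carrier Slc43a2 fell by 0.95, 1.26 and 1.15. The median of Slc7a3 in normal thymus was 0.559 CPM.

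Among 13 genes of asparagine, glutamine and transaminase metabolism, 7, 6 and 6 were higher and 3, 4 and 4 lower, with medians of 0.72, 0.65 and 0.54. The proline synthesis enzymes Pycr1 and Aldh18a1 rose, by 2.34, 2.31 and 1.91 and by 1.43, 1.38 and 1.41. Glutamine synthetase (Glul) went from 703 CPM in normal thymus to 127, 135 and 172 CPM and fell by 2.42, 2.62 and 2.23, and asparaginase (Aspg) fell by 5.87, 6.24 and 5.90. Of 10 amino acid response genes, 3, 2 and 4 were higher and 1, 3 and 2 lower, which is near the shares of all genes called higher (23.2%, 25.4% and 25.6%) and lower (17.5%, 26.7% and 25.3%). Atf4 rose by 0.74, 0.82 and 0.82 (edgeR, adjusted p = 0.0122, 0.00353 and 0.00267), and Cebpb, a C/EBP transcription factor, fell by 1.82, 1.99 and 1.41. The fat and epithelial markers given above were lower in the lymphomas as well, and their part in the falls was not tested.

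Among the 3 lymphoma groups no difference was called with edgeR. The treated p53+/- and untreated p53-/- groups differ in both genotype and treatment, which cannot be told apart between them. Of 16389 genes tested, 0 (0%) passed in each of the 3 contrasts with edgeR, while 1917 genes had an unadjusted p under 0.05 for treated p53-/- minus untreated p53-/-, 864 for treated p53+/- minus treated p53-/- and 1037 for treated p53+/- minus untreated p53-/-. DESeq2 called 76, 12 and 3 genes, none of them among the 10. Bcat1 differed by -1.40 ± 0.73 (95% interval -2.88 to 0.09; edgeR, adjusted p = 0.457), -0.34 ± 0.56 (-1.48 to 0.80; adjusted p = 0.977) and -1.74 ± 0.73 (-3.23 to -0.24; adjusted p = 0.777) on the log2 scale. It was the only one of the 10 with an unadjusted p under 0.05, in the last contrast (p = 0.0245 in edgeR). Without mouse 120 the Bcat1 differences were -0.12 ± 0.47, -0.35 ± 0.38 and -0.46 ± 0.47 (edgeR, adjusted p = 0.953, 0.962 and 0.905). For the other 9 genes the log2 differences lay between -0.52 and 0.52. Their intervals ran from -2.06 to 1.46 for Asns, the widest, and from -0.43 to 0.36 for Slc3a2, the narrowest, in treated p53+/- minus untreated p53-/-. The labelled males were 9 of 10 untreated p53-/-, 4 of 9 treated p53-/- and 3 of 12 treated p53+/- mice, and sex was a term of the fit. With no sex covariate, Slc7a5 in treated minus untreated p53-/- lymphomas was -0.08 and Slc3a2 was 0.04, neither called (edgeR, adjusted p = 0.934 and 0.951). With sex in the fit these values were -0.51 and -0.13, also not called.

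The 3 genes on chromosome 6 were set against their chromosome. The median log2 ratio to normal thymus over chromosome 6, centred on all genes of the mouse, was -0.31 ± 0.09 (SD, n = 10), -0.41 ± 0.07 (n = 9) and -0.39 ± 0.11 (n = 12) in the 3 groups, and below 0 in all 31 lymphomas. Bcat1, Asns and Mthfd2 had mean log2 ratios of 4.47, 0.88 and 1.58 in untreated p53-/- lymphomas, above 0 where the chromosome median was below it. Among lymphomas, no member passed the correlation test with the median of its own chromosome (10 relations, Pearson r between -0.07 and 0.40, lowest permutation p 0.051 after adjustment).

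Over 31 lymphomas, with each group's mean removed, 75 relations were tested with 100000 permutations within groups and adjusted together, and 23 of the 45 pairs passed with both Pearson's r and Spearman's rho, all positive. The share over all pairs of genes was not computed, so nothing particular to these genes can be read from the count. Single-biopsy and multifocal tumours were not centred or permuted apart, and the part of biopsy number in these relations was not tested. For Bcat1 and Mthfd2, r was 0.63 and rho 0.71 (adjusted permutation p = 0.00043 and 0.00037), and r was 0.77 without the 2 mice farthest from the median of Bcat1. Within the 3 groups r was 0.62, 0.78 and 0.87. Bcat1 and Slc7a5 gave r = 0.52 and rho = 0.74 (adjusted permutation p = 0.004 and 0.00025), with 0.72 without 2 mice. Over the 18 single-biopsy lymphomas alone r was 0.51 and this pair did not pass. Psat1 and Shmt2 gave r = 0.76 and rho = 0.77 (adjusted permutation p = 0.00019 and 0.00025), with 0.71 without 2 mice. Bcat2 passed with 0 of its 9 partners (r between -0.24 and 0.30) and Slc1a5 with 1, Shmt2. Within the 9 treated p53-/- lymphomas Bcat2 gave r = -0.91 with Slc7a5 and -0.74 with Bcat1, against 0.12 and 0.16 in untreated p53-/- and 0.22 and 0.31 in treated p53+/- lymphomas, a difference between groups that was not tested.

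Atf4 passed with 6 of the 10 genes: Mthfd2 (r = 0.74), Psat1 (0.71), Asns (0.57), Slc3a2 (0.57), Bcat2 (0.48) and Bcat1 (0.46). For Mthfd2 and Atf4 rho was 0.65 (adjusted permutation p = 0.0011) and r without 2 mice 0.72, and for Bcat1 and Atf4 rho was 0.56 (adjusted permutation p = 0.0079) and r without 2 mice 0.65. Myc passed with 0 of 10 (r between -0.27 and 0.32, lowest adjusted permutation p 0.12), and it was itself higher in all 31 lymphomas (62.2 to 443 CPM) than in normal thymus (38.3 to 59.0 CPM). How many of all genes pass with Atf4 or with Myc was not computed, so nothing particular to these 10 genes can be read from either count. With no scaling factors 24 of the 75 relations passed and with the first biopsy of each tumour 22, all among the 29 that passed over all 31 mice. Bcat1 with Atf4 passed in neither, and Bcat2 with Atf4 did not pass with the first biopsy. With the 18 single-biopsy lymphomas alone 6 passed, also among the 29, and of the relations with Atf4 only that of Mthfd2 was one of them. Without mouse 120, 35 relations passed, with Atf4 passing with 9 of the 10 genes (r = 0.73 with Bcat1) and Slc1a5 also passing with Bcat1. For this count too the share over all genes was not computed. Without mouse 881, 32 passed, 7 of them with Atf4. With the first biopsy Slc1a5 passed with 0 partners.

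**Figure D4:**
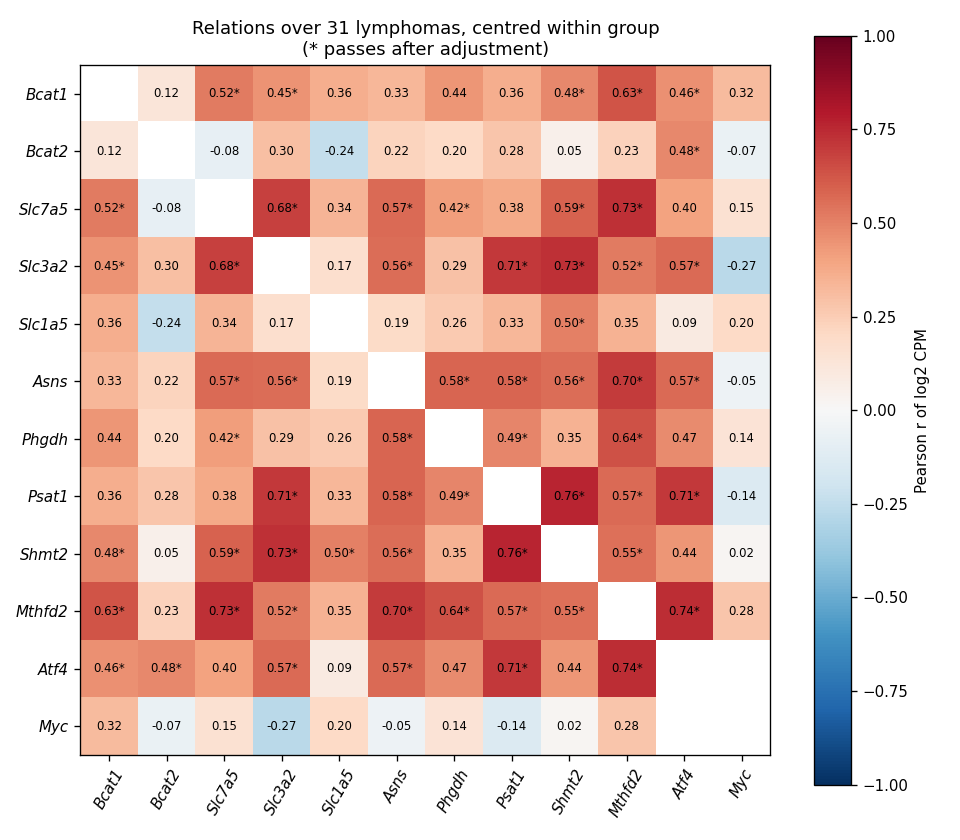
Pearson's r of log2 CPM over 31 lymphomas, with group means removed, between the 10 genes, Atf4 and Myc (rows and columns), and an asterisk where r and rho both passed after adjustment. The Bcat2 and Slc1a5 rows are paler than those of Mthfd2 and Shmt2, which passed with 7 of 9 partners each, and no cell of Myc has an asterisk.

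Among 9369 protein-coding genes with a mean of at least 10 CPM, the 5 most like Bcat1 over the 31 lymphomas were Srm (rho = 0.76), Slc7a5 (0.74), Gar1 (0.73), Mthfd2 (0.71) and Rbm19 (0.71), so 2 of the 5 were among the 10 genes. Srm is spermidine synthase and Gar1 a protein of small nucleolar RNA particles. Srm had medians of 24.8 CPM in normal thymus and 110, 129 and 143 CPM in the lymphoma groups. Of the remaining genes, Slc3a2 ranked 17, Shmt2 33, Psat1 196, Asns 248, Phgdh 611, Slc1a5 823 and Bcat2 3832 in likeness to Bcat1, while Atf4 ranked 137 and Myc 1813.

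Variation between and within tumours was compared over the biopsies of the 13 multifocal tumours. Biopsies of a tumour are not replicates of a condition. Between-tumour differences within groups made up 96.1% of the log2 variance of Slc1a5, 87.4% of Bcat2, 81.9% of Asns, 76.0% of Bcat1 and 60.5% of Phgdh, beside a median of 74.0% over 9832 genes. Slc1a5 was higher on this measure than 99.5% of those genes. In mouse 884 its 4 biopsies had 32 to 42.9 CPM and in mouse 905 23.3 to 33.2, while in mouse 903 they had 302 to 336. Bcat2 differed at most 1.66-fold between biopsies of a tumour.

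Asns had the largest spread within tumours of the 10 genes, with an SD of 0.72 on the log2 scale between biopsies, above 94.8% of all genes (median 0.25). Its highest and lowest biopsy differed over 2-fold in 9 of 13 tumours. In mouse 870, biopsies 1 and 3 had 62.1 and 67.7 CPM and biopsies 5 and 7 had 14.7 and 11.5 CPM, a 5.90-fold range. In mouse 862, biopsy 9 had 11.2 CPM and the other 4 had 39.2 to 55.1. That biopsy also had the most myeloid RNA (849 CPM against 302 to 525) and stroma and vessel RNA (1115 CPM against 287 to 667) and the least proliferation RNA (2121 CPM against 2805 to 3103). In mouse 881 all 4 biopsies were low, at 0.932 to 3.04 CPM. Marker sums also differed between the biopsies of mouse 870. T-lineage sums were 4310 and 5208 CPM in biopsies 1 and 3 and 4169 and 3879 in biopsies 5 and 7, thymic epithelium sums 57.9 and 14.3 CPM against 132 and 62.3, and myeloid sums 579 and 501 CPM against 910 and 668. Proliferation sums were 2636 and 3406 CPM against 2300 and 2546, and B-lineage sums 4.16 and 3.1 CPM against 8.93 and 6.47. Fat sums and stroma and vessel sums overlapped between these pairs of biopsies. The part of cell content in the Asns differences was not tested.

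Bcat1 differed over 2-fold between biopsies in 4 of 13 tumours. In mouse 884 it had 101 to 103 CPM in biopsies 5, 6 and 8 and 32.3 in biopsy 2. That biopsy also had the most Slc3a2 (321 CPM against 145 to 164) and B-lineage RNA (124 CPM against 23.7 to 41.6) and the least stroma and vessel RNA (418 CPM against 877 to 998). It had the most T-lineage RNA (4905 CPM against 3078 to 3743), thymic epithelium RNA (115 CPM against 48.7 to 69.9) and proliferation RNA (3052 CPM against 1674 to 2207) and the least fat RNA (34.3 CPM against 64.7 to 97.6) as well. The part of these in the difference was not tested. The others over 2-fold were mouse 862 (25.4 to 61.0 CPM), mouse 869 (35.6 to 81.4) and mouse 908 (48.0 to 103). Marker sums differed there as well. Biopsy 3 of mouse 869, with the least Bcat1, had thymic epithelium RNA of 238 CPM against 10.8 to 13.8, myeloid RNA of 818 CPM against 284 to 519, B-lineage RNA of 25.8 CPM against 1.19 to 1.89 and proliferation RNA of 2329 CPM against 3359 to 3928. Biopsy 9 of mouse 908, with the most Bcat1, had fat RNA of 441 CPM against 52.6 to 190, B-lineage RNA of 169 CPM against 21 to 76.9 and thymic epithelium RNA of 17.6 CPM against 70.7 to 116. It also had the most myeloid RNA (928 CPM against 552 to 700) and the least T-lineage RNA (3628 CPM against 3938 to 4479). Biopsy 9 of mouse 862, with the least Bcat1 there, is the one described above for Asns, and the part of cell content in these differences was not tested. The smallest range was 1.26-fold, for example 113 to 143 CPM in mouse 903.

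**Figure D5:**
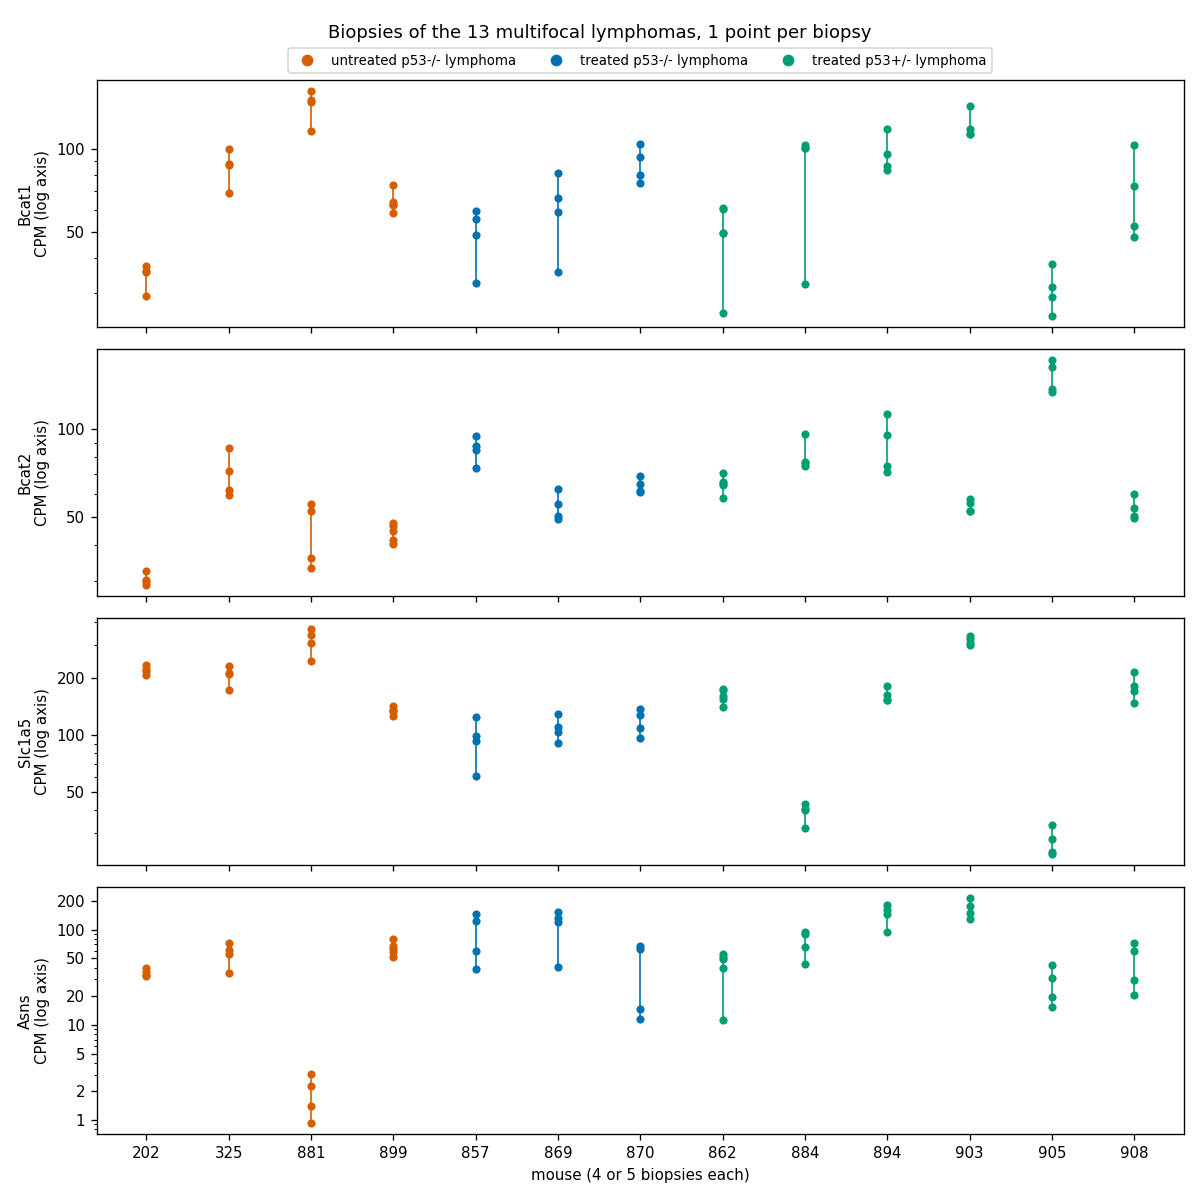
CPM (log axis) of Bcat1, Bcat2, Slc1a5 and Asns in each biopsy of the 13 multifocal lymphomas, 1 point per biopsy and a line from the lowest to the highest. Slc1a5 is low in every biopsy of mice 884 and 905, and Asns spreads 5.90-fold in mouse 870.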

How the data were processed

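RNA was sequenced from frozen thymic tissue with standard Illumina libraries, per the labels' protocols. The authors deposited expected counts per gene from RSEM. The submitters' processing notes name CASAVA 1.8, fastp, STAR 2.7.2b, RSEM 1.1.17 and build mm10. Strandedness is not given in the sources used here. Expected counts were rounded, and biopsies of a mouse were summed. The separate mice were the replicates, so p-values measure the spread between mice.

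Tests used edgeR 4.0.16 in R 4.3.3 (TMM scaling, filterByExpr, robust quasi-likelihood, labelled sex as covariate) with Benjamini-Hochberg adjustment over all genes tested and a threshold of 0.05. The first fit held 8 normal thymuses and 31 lymphomas, the second the 31 lymphomas. CPM values are TMM-scaled, and log2 CPM used a prior count of 2. The sex markers of 3 of the 40 mice went against the labelled sex, and a fit without them was an alternative. Chromosome medians used 14884 autosomal genes with a mean of at least 1 CPM. Biopsy variance and likeness to Bcat1 used genes with a mean of at least 10 CPM. Named pathway genes were up to 2 per list and direction with the largest mean change among those called the same way in all 3 comparisons. The genes and lists were chosen with earlier results of these data known. Alternatives were DESeq2 1.42.0, other scaling, no filter, other covariates, biopsies and mice, and those without mouse 120, without mouse 881 and of group separation with no scaling were chosen after seeing the data. On simulated counts for treated p53-/- minus untreated p53-/- (16389 genes, 200 changed), edgeR recovered 47 of 100 genes changed 2-fold and 90 of 100 changed 4-fold, with 3 false calls. DESeq2 recovered 55 and 92 of these, with 19 false calls. In a contrast simulated without change edgeR called 0 genes and DESeq2 3. Genes with low counts were left out of the changed ones, and no sex effect was simulated.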

Additional observations from a re-analysis of the deposited data

Results flagged for a closer look

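Of 160 groups of 4 to 10 values examined, 11 held a value far from the others, 4 among mice and 7 among biopsies of a tumour, and chance gives about 1 in 20 groups, or 8. The 12 mice of the treated p53+/- group were too many for this rule and were not examined as a group. Among them Psat1 was 1005 CPM in mouse 894, with 457 the next. Bcat1 in the untreated p53-/- lymphoma of mouse 120 was 921 CPM, with 149 the next. In normal mouse 387, Slc1a5 was 569 CPM (next 257) and Asns 42.7 CPM (next 18.7). Asns in the untreated p53-/- lymphoma of mouse 637 was 169 CPM, with 67.5 the next.

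Among biopsies, mouse 884 had 32.3 CPM of Bcat1 in biopsy 2 (nearest 101), 321 CPM of Slc3a2 in the same biopsy (nearest 164) and 96.7 CPM of Bcat2 in biopsy 6 (nearest 77.3). Mouse 903 had 143 CPM of Bcat1 (nearest 118) and 373 CPM of Slc7a5 (nearest 324) in biopsy 3. Psat1 was 294 CPM in biopsy 3 of mouse 905 (nearest 193), and Mthfd2 was 141 CPM in biopsy 9 of mouse 908 (nearest 76.5). In the p53+/- normal thymus, which entered no comparison, Slc7a5 was 27.5 CPM, above the highest p53+/+ normal thymus (24.6 CPM).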

How the results depend on the processing

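Of 378 alternative values of the 9 genes other than Bcat1 against normal thymus, 343 kept their direction and side of the threshold, 20 lost a call, 10 gained one and 5 changed sign. The sign changes were of values that were not called: Slc1a5 in untreated p53-/- lymphomas (0.16 with multifocal tumours alone, 0.10 without normal mouse 387), and Slc3a2 in treated p53-/- (-0.0047 with no scaling factors, -0.12 with single-biopsy tumours alone) and treated p53+/- lymphomas (-0.02 with single-biopsy tumours alone). Bcat1 in untreated p53-/- lymphomas was 4.98 with multifocal tumours alone and 4.50 without mouse 120. Between treated p53+/- and treated p53-/- lymphomas it was 0.10 with multifocal tumours alone. Of 360 alternative values of the 10 genes between lymphoma groups, 38 changed sign and none was called. Among lymphomas edgeR called 0 genes, but DESeq2 called 76, 12 and 3, and for treated p53+/- minus untreated p53-/- edgeR called 7 genes with no filter and 21 with no sex covariate. Relations that passed numbered 29 over 31 mice and 6 over the 18 single-biopsy tumours, where fewer mice enter. Without length correction the median share of Bcat1 was 2.36% in normal thymus, 56.0% in untreated p53-/- lymphomas, and for the treated lymphomas 46.6% with p53-/- and 44.7% with p53+/-, with 7, 4 and 3 lymphomas over 50%. The causes of these changes were not tested, apart from the length correction. No paired analysis was possible because the labels number the mice and each number belongs to 1 group. Depth limits Bcat1 in normal thymus, where the lowest library had 23 counts.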

Other observations

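Ranked from high to low over the 31 lymphomas, mouse 903 was among the top 5 for 9 of the 10 genes, all but Bcat2, where it ranked 19. Mouse 894 was among the top 5 for 8 genes, all but Slc7a5 (rank 7) and Slc1a5 (rank 11). Both carried treated p53+/- lymphomas and had 4 biopsies each. Mice 98, 157, 643 and 309, with 1 biopsy each, were each among the lowest 5 for 5 genes, and mouse 157 ranked last for Bcat1 and Phgdh. Of these, mouse 309 was also of the treated p53+/- group. The part of group or biopsy number in these ranks was not tested.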
